A study of Homo sapiens with 2 samples.

Results

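P493-6 cells are a human B cell line, labelled as B-cell lymphoma, with a c-Myc transgene that tetracycline represses. The folate uptake and one-carbon genes examined here were 9 of the 10272 genes expressed in these cells. They were chosen by name: the carrier SLC19A1, the enzymes FPGS and GGH, which set how long folate stays in the cell, and the one-carbon enzymes SHMT1, MTHFD1, TYMS, SHMT2, MTHFD2 and MTHFD1L. The low c-Myc group was 1 library from cells taken 0 h after release from tetracycline, and the high c-Myc group was 1 library from cells taken 24 h after it. Both came from the same line and medium, and synthetic RNAs were added to both by cell number. Values are RPKM, reads per kilobase and per library size. Where a symbol had several transcript rows, that of the highest mean RPKM was taken, and a gene counted as expressed at a mean of at least 1, which all 9 passed. With 1 library per group no difference has a replicate check and no test between conditions was made. Calls of higher or lower rest on size alone, a log2 ratio of high over low c-Myc, on the log2(RPKM + 0.5) scale, at or beyond 1 or -1, and the 95% intervals given cover counting error only.

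Folate carries single carbon units between enzymes. Cells import reduced folate and trap it by adding a tail of glutamates. They then load it with carbon, mostly from serine, in parallel cytosolic and mitochondrial arms that exchange formate. The loaded folates feed the making of purines, thymidylate and methionine, which dividing lymphocytes need, and antifolate drugs act on this pathway. c-Myc binds with its partner MAX to the E-box, whose letters are CACGTG.

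The stretches near annotated gene starts that hold this E-box are shown because the libraries differ in c-Myc, while no binding was measured here. The RefSeq promoter table (GRCh38.p14) had windows of 250 bases before to 50 after a start for 7 of the 9 genes, not for SHMT2 and GGH. CACGTG, which reads the same on both strands, was in at least 1 window of 4 of these 7 genes, against 8.77% of all 27305 symbols in the table and 13.4% of the 7717 symbols that were also expressed. Counted by window, 6 of the genes' 15 windows held it, against 7.26% of all 35116. Windows of 1 gene overlap, so the 3 MTHFD1L windows with the motif share 1 match. A gene with more windows has more places for a match, which the share by symbol does not allow for. Of the 4 genes with a match, SLC19A1 and MTHFD1L had 4 windows each, FPGS 3 and MTHFD1 1. The E2F motifs TTTGGCGC and TTTCGCGC, searched on both strands, were in none of the 15 windows and in 1.15% of all. Each match is printed with its flanks and with the motif in capitals:
MTHFD1L, chr6:150866320-150866349, plus strand: cacgcccggctcCACGTGcgcagccggccg
MTHFD1, chr14:64388326-64388355, plus strand: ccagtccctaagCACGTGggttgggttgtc
FPGS, chr9:127803093-127803122, plus strand: tgggcgcgacgaCACGTGggcctgcgctga
SLC19A1, chr21:45541797-45541826, minus strand: ttcgcgcccaggCACGTGttgcttcgggac
The motif began 15 bases before the MTHFD1 start and 1, 115 or 154 bases before 3 of the 4 listed MTHFD1L starts. In FPGS it began 76 bases before 1 of 3 listed starts, and in SLC19A1 it lay 32 bases after 1 of 4. A match describes the letters of these windows and not binding by c-Myc.

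The libraries held about 103000000 reads (low c-Myc) and 105000000 reads (high c-Myc), by the steps between their lowest values. Synthetic RNAs held 17.5% of the summed RPKM at low c-Myc and 2.75% at high c-Myc. On the deposited RPKM scale transcripts thus held a larger part at high c-Myc. MYC stood at 836 RPKM at low c-Myc and 2358 RPKM at high c-Myc, in the order of the labels. That was a 2.82-fold higher level, from rank 18 of 10272 expressed genes to rank 3. MYC RNA was thus abundant at low c-Myc too. Scaled per cell to the added synthetic RNAs, MYC was 16.6-fold higher at high c-Myc, and 17.3-fold higher in the authors' renormalized column. All 6 B cell markers were above 1 RPKM in both, between 68.5 and 1202 at low c-Myc and between 39.8 and 460 at high c-Myc. Of 6 T cell markers, 3 reached 1 RPKM at low c-Myc and 1 did at high c-Myc, with CD3D and CD8A at 0 in both and a summed level of 13.3 and 2.17. The 5 myeloid markers summed to 151 and 35.6. Of them CD14 and CSF1R were below 0.1 in both, while CD68 stood at 66.5 and 11.1, ITGAM at 56.8 and 19.5 and LYZ at 27.2 and 4.91. The 4 NK cell markers summed to 10.6 and 5.20, and the 5 fibroblast or epithelial markers to 19.2 and 13.0, with KRT18 at 0 in both, PDGFRB at 10.7 and 2.80 and COL1A1 at 8.06 and 9.23. On the deposited RPKM scale the summed level of each of the 5 lists, B cell markers included, was lower at high c-Myc. Per cell, scaled to the added synthetic RNAs, the log2 ratios of these sums were 1.16 for B cell, 0.48 for myeloid, 1.53 for NK cell, 1.997 for fibroblast or epithelial and -0.06 for T cell markers. The part of these markers in the results below was not tested. In bulk RNA, fewer cells of a type and less RNA per cell cannot be told apart.

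All 9 folate genes had a higher RPKM at high c-Myc, and 7 of them were at least 2-fold higher by the rule, where 24.9% of all expressed genes were. MTHFD1L, below 1 RPKM at low c-Myc, passed the filter on the mean only through its level at high c-Myc. None of the 9 was 2-fold lower, as 9.74% of all expressed genes were. Their median log2 ratio was 1.66, beside 0.22 for all expressed genes. SLC19A1, the reduced folate carrier, and MTHFD1L, the mitochondrial synthetase that releases formate, had the largest ratios. SHMT2 and MTHFD2, both mitochondrial, were the 2 genes below the rule. After a correction for transcript GC content 7 of the 9 were again higher, beside 21.4% of all expressed genes, and none was lower, beside 9.13%, but MTHFD2 had then passed the rule and FPGS had not. Relative to the median of all expressed genes, the log2 ratios ran from 0.34 for SHMT2 to 4.48 for SLC19A1. Quantile normalization, which moved that median to -0.09, brought SHMT2 to -0.02, while the other 8 stayed above 0 under all 8 settings tried.

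**Figure D1:**
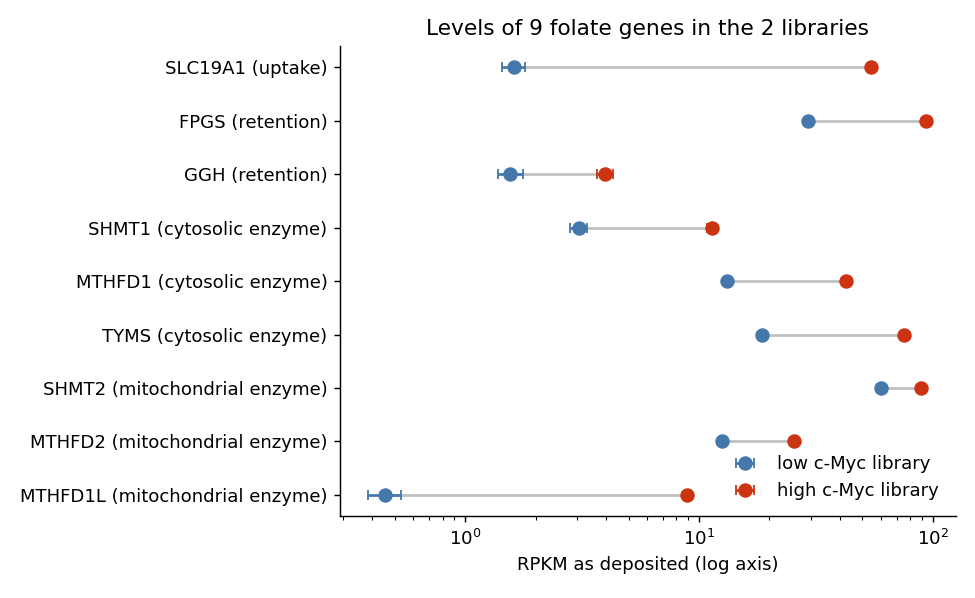
RPKM as deposited (log axis) of the 9 genes in the low c-Myc library (blue) and the high c-Myc library (red), with 95% counting intervals, ordered by role. All 9 red points lie to the right of the blue ones, with SLC19A1 (1.61 and 54.7) and MTHFD1L (0.455 and 8.93) farthest apart and SHMT2 (59.99 and 88.9) closest.

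SLC19A1 brings reduced folate, and the antifolate methotrexate, into cells. Its level was 1.61 RPKM at low c-Myc (95% interval 1.44 to 1.80, about 315 reads) and 54.7 RPKM at high c-Myc (53.7 to 55.7, about 10915 reads). The carrier was thus among the weakest expressed genes before release, at rank 9281 of 10272, and stood at rank 1263 after it. That was a 33.9-fold higher level (30.3 to 38.0) and a log2 ratio of 4.71, rank 12 of all expressed genes. Its 3 transcript rows lay between 1.38 and 1.61 RPKM at low c-Myc and between 53.2 and 54.7 RPKM at high c-Myc. The transcript is rich in G and C, at 65.4% against a median of 50.3% over expressed genes, and after the GC correction its log2 ratio was 3.48. With 2 libraries, likeness to SLC19A1 can only mean similar levels in both: the 3 nearest expressed genes were JAG2, DOHH and B4GALT2, with log2 ratios of 4.79, 4.35 and 4.40, at distances of 0.31, 0.32 and 0.45 on the log2 scale.

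FPGS and GGH act against each other on stored folate. FPGS, folylpolyglutamate synthase, adds the glutamate tail that keeps folate in the cell. Its level was 29.2 RPKM at low c-Myc and 93.7 RPKM at high c-Myc, a 3.21-fold higher level (3.12 to 3.30) with a log2 ratio of 1.66. Its transcript also has a high GC content, 63.0%, and after the GC correction its log2 ratio was 0.80, below the rule. GGH, the lysosomal hydrolase that removes the tail, had 1.56 RPKM at low c-Myc and 3.96 RPKM at high c-Myc, a 2.53-fold higher level (2.20 to 2.94) with a log2 ratio of 1.11. GGH was the weakest of the 9 genes at high c-Myc and lay just above the rule. Centred on the median of all expressed genes, its log2 ratio was 0.89. Within a library, FPGS stood 18.7-fold above GGH at low c-Myc (16.5 to 21.3) and 23.7-fold above it at high c-Myc (21.9 to 25.6), a pair chosen after its values were seen. After the GC correction the log2 ratio of GGH was 1.24, above the 0.80 of FPGS. The direction of the shift in this pair is therefore not settled.

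The 3 enzymes of the cytosolic arm were all more than 3-fold higher at high c-Myc. SHMT1, the cytosolic hydroxymethyltransferase that moves a carbon from serine to folate, had 3.06 RPKM at low c-Myc and 11.4 RPKM at high c-Myc. This was 3.72-fold higher (3.37 to 4.10), with a log2 ratio of 1.74. MTHFD1, a cytosolic enzyme with 3 activities that interconverts loaded folates, stood at 13.2 RPKM before and 42.6 RPKM after release. It was 3.22-fold higher (3.11 to 3.33), with a log2 ratio of 1.65. TYMS, thymidylate synthase, which makes the DNA precursor thymidylate and is a target of fluorouracil, stood at 18.7 RPKM before and 75.7 RPKM after release. It was 4.05-fold higher (3.90 to 4.21), with a log2 ratio of 1.99, the highest of the cytosolic arm. The GC correction left these log2 ratios at 1.60 for SHMT1, 1.73 for MTHFD1 and 2.03 for TYMS.

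The mitochondrial enzymes differed widely among themselves. SHMT2, the mitochondrial hydroxymethyltransferase, was the most abundant of the 9 genes at low c-Myc, with 59.99 RPKM, and stood at 88.9 RPKM at high c-Myc. It was 1.48-fold higher (1.45 to 1.52), with a log2 ratio of 0.56, and its rank among expressed genes was 635 before and 651 after release. MTHFD2, the mitochondrial dehydrogenase and cyclohydrolase, had 12.6 RPKM at low c-Myc and 25.6 RPKM at high c-Myc. It was 2.04-fold higher (1.97 to 2.10), and its log2 ratio of 0.997 with the pseudocount was 1.03 without it, so its call turns on the pseudocount. MTHFD2 has the lowest GC content of the 9 genes, 41.4%, and after the GC correction its log2 ratio was 1.34, above the rule. The GC content and counting intervals of MTHFD2 rest on a transcript of 4456 bases, which may differ from the authors' annotation. MTHFD1L was weak before release, with 0.455 RPKM at low c-Myc (0.384 to 0.534, about 148 reads) and 8.93 RPKM at high c-Myc. That was a 19.6-fold higher level (16.6 to 23.3) and a log2 ratio of 3.30, or 4.30 without the pseudocount, which weighs most on a level this low. Its rank went from 10171 to 5270 of 10272. The 4 MTHFD1L rows had log2 ratios between 3.21 and 3.30, and the 5 SHMT2 rows all had 0.56.

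**Figure D2:**
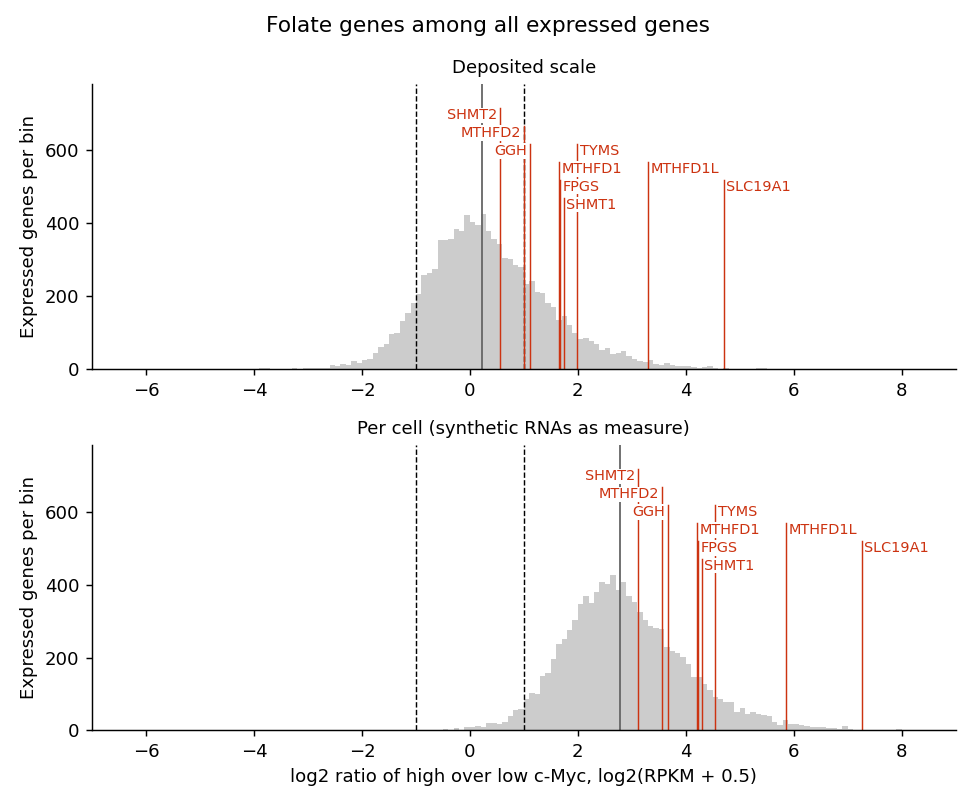
Histograms of the log2 ratio of high over low c-Myc over 10272 expressed genes in bins of 0.1, on the deposited scale (top) and per cell (bottom), with the 9 genes as red lines, the median of all expressed genes as a grey line (0.22 and 2.78) and dashed lines at 1 and -1. On both scales SHMT2 lies nearest the grey line and SLC19A1 far to the right, and per cell all 9 genes lie beyond 1, as do most expressed genes.

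The balance between the mitochondrial and cytosolic enzymes of one step was compared within each library, where the scaling of the library cancels. At low c-Myc, SHMT2 stood 19.6-fold above SHMT1 (18.0 to 21.5), and at high c-Myc 7.82-fold (7.47 to 8.20). SHMT1 thus made up a larger part of the summed SHMT level after release, although SHMT2 still held 88.7% of it, against 95.1% before. MTHFD1L was at 0.0344 of the MTHFD1 level at low c-Myc (0.0290 to 0.0405) and at 0.210 at high c-Myc (0.201 to 0.218), a 6.10-fold higher ratio. MTHFD2 was at 0.950 of MTHFD1 at low c-Myc (0.913 to 0.989) and at 0.600 at high c-Myc (0.586 to 0.615). The 3 pairs did not shift to one side: relative to its cytosolic partner SHMT2 and MTHFD2 were lower, and MTHFD1L higher, after release.

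**Figure D3:**
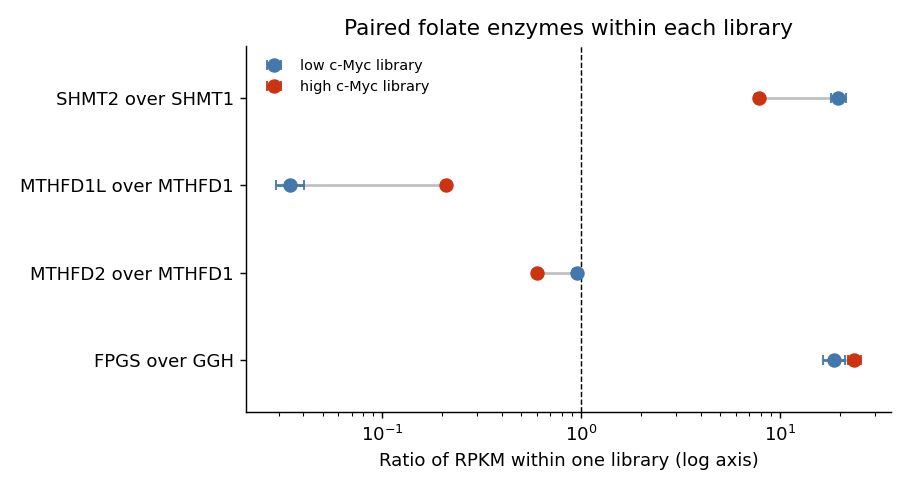
Ratio of the RPKM of 2 genes within one library (log axis) for 4 pairs, in the low c-Myc library (blue) and the high c-Myc library (red), with 95% counting intervals and a dashed line at equal levels. SHMT2 over SHMT1 goes from 19.6 to 7.82 and MTHFD1L over MTHFD1 from 0.0344 to 0.210, in opposite directions.

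The order of the levels was partly rearranged. At low c-Myc it ran from SHMT2 through FPGS, TYMS, MTHFD1, MTHFD2, SHMT1, SLC19A1 and GGH to MTHFD1L, a 132-fold span. SLC19A1 and GGH did not differ beyond counting error there, since the interval of GGH was 1.38 to 1.76 RPKM, and MTHFD1 and MTHFD2 were close, with intervals of 12.8 to 13.6 and 12.2 to 12.9 RPKM. At high c-Myc the order ran from FPGS through SHMT2, TYMS, SLC19A1, MTHFD1, MTHFD2, SHMT1 and MTHFD1L to GGH, a 23.7-fold span, and no neighbours had overlapping counting intervals. The carrier overtook MTHFD1, MTHFD2 and SHMT1. Of the 9 genes, 5 were above the median RPKM of expressed genes at low c-Myc (7.57) and 7 at high c-Myc (9.35).

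Per cell, all 9 folate genes were at least 2-fold higher, as were 97.1% of all expressed genes, so that count says nothing about the folate genes beyond the others. None was 2-fold lower per cell, as 0.0876% of all expressed genes were. The per-cell ratio takes off the log2 ratio of the added RNAs, whose median was -2.56 over the 46 that reached 1 RPKM in both libraries (interquartile range -2.84 to -2.17 over these RNAs). The median per-cell log2 ratio of the 9 genes was 4.22, beside 2.78 for all expressed genes. SHMT2 had the lowest, 3.12, an 8.70-fold higher level per cell, and SLC19A1 the highest, 7.26, a 153-fold higher level, or 199-fold without the pseudocount. In the authors' deposited column renormalized to the synthetic RNAs, SLC19A1 stood at 0.751 and 118, a 157-fold ratio. In that same column from the authors' deposited tables, SHMT2 stood at 26.7 and 199.5, a 7.46-fold ratio, and TYMS at 8.53 and 166, a 19.4-fold ratio. These ratios from the authors' column have no pseudocount. Without one, TYMS was 23.8-fold higher per cell by the median of the synthetic RNAs. With the same pseudocount, the log2 ratio from the authors' deposited column was smaller for all 9 genes than by that median, at 6.56 against 7.26 for SLC19A1.

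Genes that overlap 5 of the 9 on the opposite strand were read beside them, because whether counting used the strand is not stated in the sources used here. ENOSF1, antisense to TYMS, had 1.62 RPKM at low c-Myc and 4.23 RPKM at high c-Myc, a log2 ratio of 1.16, in the same direction as TYMS but far below its level. ZBTB25 beside MTHFD1 stood at 5.18 and 3.81, SLC4A5 beside MTHFD2 at 1.92 and 0.941, SMCR8 beside SHMT1 at 9.34 and 8.64, and COL18A1 beside SLC19A1 at 0.0162 and 0.0141. None of these 4 was higher after release on the deposited scale. RefSeq names 7 pseudogenes after MTHFD2, 2 after TYMS and 1 each after SHMT1 and MTHFD1, so reads of these 4 genes could be shared with copies, and their levels are uncertain to that extent.

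Around the 9 genes, 26 further genes of folate transport, folate interconversion, formylation, glycine cleavage and the methionine cycle were read, of which 16 were expressed. Of these 16, 9 were at least 2-fold higher, beside 24.9% of all expressed genes, 1 was lower, beside 9.74%, and 6 lay between. Of the 9, SLC46A1 and GCSH were below 1 RPKM at low c-Myc and passed the filter only through their level at high c-Myc, so the filter in part fixed this count. The other 10 were below the mean of 1: FOLR1, FOLR3, FOLH1, ALDH1L1 and BHMT were listed at 0 in both libraries, and FOLR2, MTHFD2L, ALDH1L2, FTCD and DMGDH were low. FOLR2, a folate receptor known from macrophages, stood at 1.44 RPKM before and 0.0682 RPKM after release. The summed myeloid markers were also lower on the deposited scale, and their part in this was not tested. Per cell without a pseudocount, FOLR2 was at 0.279 of its low c-Myc level, while the myeloid sum was higher (log2 ratio 0.48). In the authors' renormalized column, without a pseudocount, FOLR2 was at 0.242 of its low c-Myc level. With the pseudocount, added before the scaling per cell, FOLR2 had a log2 ratio of 0.79. FOLR1, at 0 in both libraries, gets 2.56 in that way, so the value of 0.79 does not give the direction of FOLR2.

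Of the 6 transport genes listed, 2 passed the filter on the mean, and FOLR2, above 1 RPKM only at low c-Myc, did not. SLC46A1, the proton-coupled folate transporter, had 0.458 RPKM at low c-Myc and 2.38 RPKM at high c-Myc (log2 ratio 1.59). SLC25A32, which carries folate into mitochondria, stood at 5.33 and 16.3 (1.53). The purine synthesis enzymes that take a formyl group from folate were GART, at 9.09 and 26.1 (1.47), and ATIC, at 21.5 and 70.1 (1.68). MTFMT, which formylates the mitochondrial initiator tRNA, stood at 1.94 and 7.47 (1.71). The 3 expressed formylation genes were all past the rule.

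Methionine cycle genes were mostly below the rule. MTHFS, an interconversion enzyme that returns a storage form of folate to use, had a log2 ratio of 1.10, which was 0.88 when centred. AHCY, which clears the product of methylation reactions, was the 1 of 6 methionine cycle and methyl donor genes past the rule, at 20.8 and 114 (2.43). The other 5 had log2 ratios of 0.83 for MAT2A, 0.62 for MTR, 0.60 for SARDH, 0.10 for MTRR and -0.37 for MAT2B. SARDH turned to -0.29 and MAT2B to 0.04 after the GC correction and MTRR to -0.12 when centred on all expressed genes. These 3 thus have no settled direction on the deposited scale. Per cell, their log2 ratios were 3.15 for SARDH, 2.19 for MAT2B and 2.65 for MTRR.

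Genes of the glycine cleavage system, a mitochondrial complex that also loads folate, went both ways. GLDC, which takes the carboxyl group off glycine, stood at 8.37 RPKM at low c-Myc and 25.2 RPKM at high c-Myc (log2 ratio 1.54). GCSH, the carrier protein, stood at 0.177 and 2.10 (1.94). AMT, which hands the carbon to folate, was the 1 gene of the 16 at least 2-fold lower, at 13.9 and 6.10 (-1.13). DLD, shared with other dehydrogenase complexes, stood at 8.44 and 10.4 (0.28), and turned to -0.03 with quantile normalization. Per cell, all 16 expressed pathway genes were at least 2-fold higher, AMT included at a log2 ratio of 1.43, beside the 97.1% of all expressed genes, so that count says nothing about these genes.

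**Figure D4:**
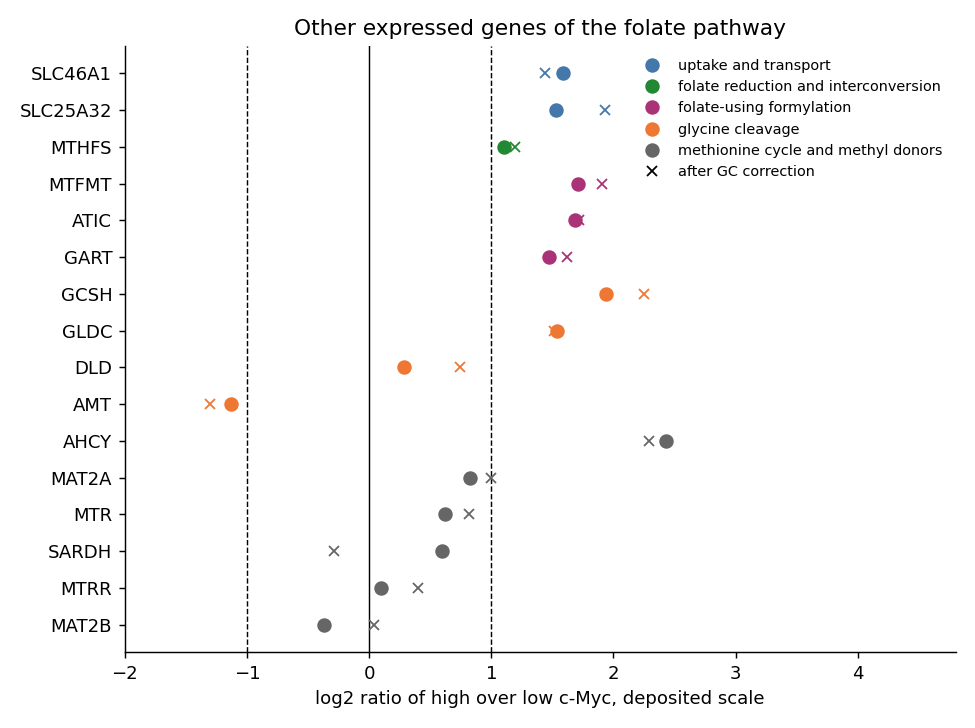
Log2 ratio of high over low c-Myc on the deposited scale for the 16 expressed pathway genes outside the 9, coloured by role (circles), and after the GC correction (crosses), with dashed lines at 1 and -1. AHCY (2.43) lies farthest right and AMT (-1.13) farthest left, and SARDH (0.60) and MAT2B (-0.37) cross 0 after the correction.

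**Figure D5:**
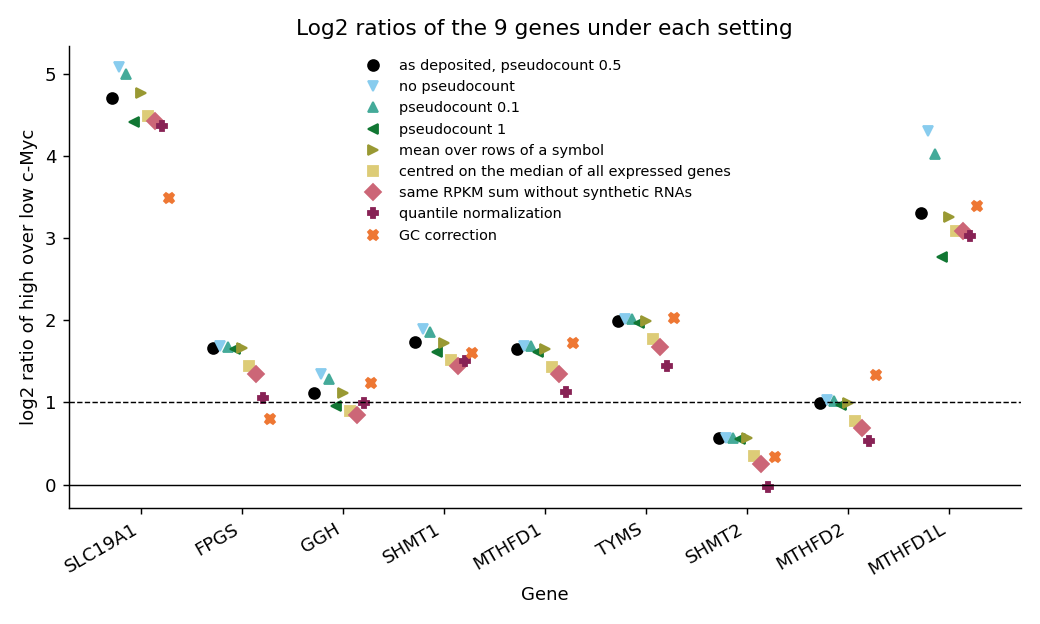
Log2 ratio of each of the 9 genes on the deposited scale as deposited with a pseudocount of 0.5 (black) and 8 alternatives, with a dashed line at 1. SLC19A1, MTHFD1L, SHMT1, MTHFD1 and TYMS stay above the line under all 9 settings, SHMT2 stays below it, and FPGS, GGH and MTHFD2 lie on either side of it.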

How the data were processed

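Poly(A)-selected RNA was sequenced from 1 low and 1 high c-Myc sample, with a dUTP method per the labels' protocols. Per the submitters' processing notes Bowtie and build hg18 were used, with the counting tool not given in the sources used here. The authors deposited RPKM per RefSeq transcript and a second, spike-in renormalized RPKM column, per the file headers. The 34194 transcript rows were reduced to 1 row per symbol. Log2 ratios used a pseudocount of 0.5 RPKM. Reads were approximated from RPKM, GENCODE 29 transcript lengths and depths of 103000000 and 105300000 reads, at which 49.3% and 46.2% of values up to 20 reads lay within 0.05 of a whole number, against 10% if evenly spread; those lengths may differ from the authors' annotation. The GC correction subtracted a lowess curve (fraction 0.3) over 9948 genes. No count model or p-value was used. The 9 genes and all lists were chosen with earlier results of these data known. Named were all 9 genes, the genes of the pathway list reported here, overlapping genes and the 3 nearest to SLC19A1; ENOSF1 was fixed by rule and the other overlapping genes were chosen by position. Some genes of that list are not reported here, and its counts leave them out. Calculations used Python 3.11.15, numpy 2.4.6, pandas 2.3.3, scipy 1.17.1, statsmodels 0.14.6 and matplotlib 3.10.9, and were checked on simulated data.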

Additional observations from a re-analysis of the deposited data

How the results depend on the processing

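The count of 7 folate genes at least 2-fold higher was 8 with no pseudocount or one of 0.1, and 6 with a pseudocount of 1, after centring, with equal RPKM sums and with quantile normalization. The share of all expressed genes moved as well. It was 27.1% with no pseudocount, 26.6% with 0.1 and 23.1% with 1. After centring it was 19.8%, with equal RPKM sums 18.3% and with quantile normalization 17.3%. Their median log2 ratio of 1.66 was 1.62 with a pseudocount of 1, 1.44 after centring, 1.35 with equal RPKM sums, 1.12 with quantile normalization and 1.60 after the GC correction. Of all genes past the rule, 71.8% were higher as deposited, 57.3% after centring, 52.7% with equal sums and 50.1% with quantile normalization. The count of 9 pathway genes was 5 at a mean RPKM of at least 5, which leaves fewer genes. The share of all genes at that limit is not given here, so this count has no comparison. Per cell, the median of 4.22 was 4.16 with the 26 synthetic RNAs that reached 10 RPKM and 3.82 with the authors' renormalized column. In that column the pseudocount was added to the renormalized values, where it weighs more. On the log2 scale with the pseudocount of 0.5, SHMT2 over SHMT1 differed between libraries by -1.17 (-1.33 with none). MTHFD1L over MTHFD1 differed by 1.65, and by 2.61 with no pseudocount, 2.34 with 0.1 and 1.15 with 1; a larger pseudocount takes more from the low level of MTHFD1L. Equal RPKM sums were set without the synthetic RNAs. The median log2 ratio of all expressed genes was then -0.07, beside 0.22 as deposited, and that of SHMT2 was 0.25, beside 0.56. The cause of the shifts not tied to the pseudocount was not tested. No paired analysis was possible because each group has 1 library and no test was made.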
